A study of Homo sapiens with 6 samples.

Results

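U2 is the small nuclear RNA of the spliceosome that pairs with the branch point of introns. The human genome holds a cluster of U2 genes and many scattered copies of them. All GENCODE release 29 genes named RNU2-* or RF00004 on chromosomes 1 to 22 and X were taken, which gave 89 genes of 58121. Of these, 70 carried an RNU2 name and 19 the family name RF00004. A peak was assigned to a copy when they overlapped by at least 1 nt on the same strand.

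The peaks came from eCLIP in HEK293T, a human embryonic kidney cell line. In this assay a protein is pulled down together with crosslinked RNA, and RNA fragments are counted there and in an input library. The series held 6 libraries: 2 for SF3B4, pulled down with an antibody against SF3B4, 2 for G4PID, an engineered biotin ligase that targets G-quadruplexes and was pulled down through anti-HA, and 2 inputs with no antibody. Per the labels' protocols, shared by all samples, cells were transfected with a G4PID or an untargeted miniTurboID plasmid and given 500 µM biotin for 30 min, and whether this holds for the SF3B4 and input cells is not settled by them. Each antibody has 1 deposited list of peaks, with 3660 SF3B4 and 270 G4PID peaks, so no value per library, no spread between replicates and no read depth could be given, and the cell line label could not be checked against expression values. Every count and median below therefore describes these lists and carries no test between conditions.

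SF3B4 is a subunit of SF3b, the protein complex that sits on the 5′ part of U2 RNA and clamps the duplex between U2 and the intron's branch point. Farther along the RNA lies the Sm site, the uridine-rich stretch on which the ring of Sm proteins assembles, and the 3′ stem-loops carry the U2-specific A′ and B″ proteins. RNU2-1 is the reference U2 gene (chromosome 17, 43233787 to 43233977, minus strand, hg38, 191 nt). Its sequence is printed first because positions below are counted from its 5′ end. The capitals mark GTAGTA (positions 33 to 38), which pairs with the branch point, and ATTTTTGG (positions 99 to 106), the Sm site. In the RNU2-4P and RNU2-70P lines, which show the SF3B4 peaks with the highest fold in the 5′ part and at the Sm site, capitals mark the bases under the peak. All sequences are from the GENCODE release 29 transcripts and are written as DNA.
RNU2-1: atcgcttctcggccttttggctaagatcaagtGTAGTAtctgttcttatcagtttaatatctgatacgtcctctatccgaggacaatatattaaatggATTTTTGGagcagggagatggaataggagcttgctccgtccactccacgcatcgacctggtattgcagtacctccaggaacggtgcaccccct
RNU2-4P: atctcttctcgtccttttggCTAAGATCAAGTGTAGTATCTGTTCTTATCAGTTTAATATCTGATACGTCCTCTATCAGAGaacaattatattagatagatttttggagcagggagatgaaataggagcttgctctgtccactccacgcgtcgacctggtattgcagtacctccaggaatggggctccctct
RNU2-70P: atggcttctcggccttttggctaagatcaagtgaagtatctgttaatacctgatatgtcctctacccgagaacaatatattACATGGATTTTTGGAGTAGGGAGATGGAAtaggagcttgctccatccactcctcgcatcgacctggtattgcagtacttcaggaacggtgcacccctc

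SF3B4 peaks lay on 29 of the 89 U2 copies (32.6%, 95% Wilson interval 23.7 to 42.9%, counting error only), against 3.55% of all 58121 annotated genes. Among protein-coding genes, which are far longer, the share was 9.4%. Among 5201 other genes of 100 to 250 nt, the length range of most U2 copies, 8 had a peak (0.154%), and among 1794 other genes of type snRNA 5 had one (0.279%). The 29 copies carried 34 SF3B4 peaks, 0.929% of the list (Wilson interval 0.666 to 1.30%). One peak was found on 25 copies, 2 peaks on RNU2-36P, RNU2-37P and a copy in the chromosome 17 cluster, and 3 peaks on RNU2-2P. All 34 peaks lay wholly inside the annotated copy. No SF3B4 peak was antisense to a copy, and none lay within 200 nt of a copy of the same strand without touching it.

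The U2 peaks stood high in the SF3B4 list. The log2 fold over input, the authors' own value for a peak, ranged from 3.58 to 7.60 in U2 copies with a median of 4.98 (quartiles 4.35 and 5.89), and the 3626 peaks outside U2 copies had a median of 3.91 (quartiles 3.50 and 4.53). Of the 34 U2 peaks, 32 exceeded the median of the whole list, 3.93. By fold, 4 U2 peaks were among the first 10 of the list, 8 among the first 50 and 22 among the first 500. The authors' −log10 p per peak reached its ceiling of 400 in 15 SF3B4 peaks, and 7 of these lay in U2 copies. A value of 15.7, which corresponds to a p of 2.2e-16, was shared by 300 peaks of the list and by 13 of the U2 peaks, so these p-values do not rank the copies. At or above that value stood 26 of the 34 U2 peaks (76.5%) and 18.5% of all SF3B4 peaks. U2 peaks were also narrow, with a median width of 34.5 nt (25 to 99 nt) against 71 nt over the list.

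**Figure D1:**
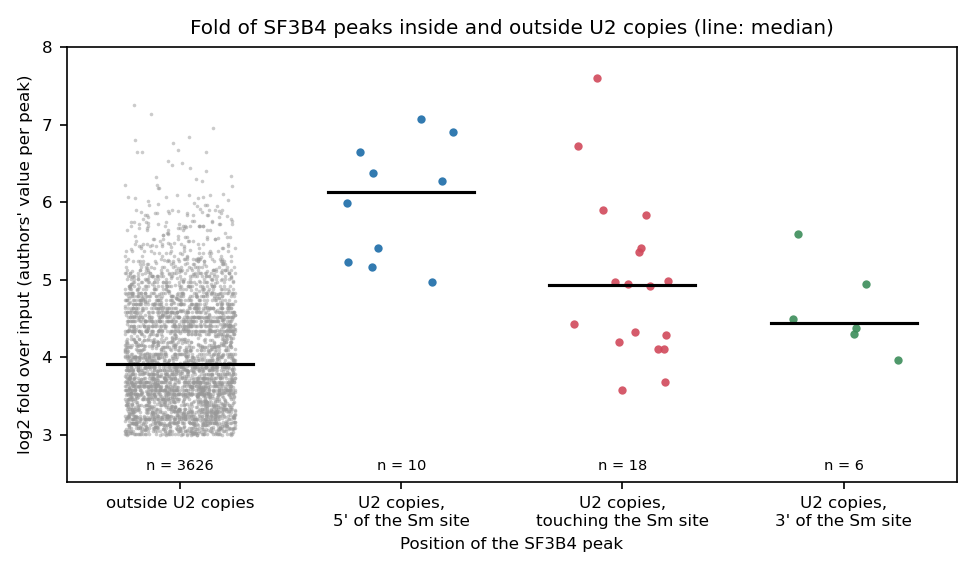
Log2 fold over input of each SF3B4 peak as deposited by the authors (vertical axis), for 3626 peaks outside U2 copies and for U2 peaks by their position relative to the Sm site (10, 18 and 6 peaks); each point is 1 peak and each line the median. The medians in U2 copies are 6.13 for peaks 5′ of the Sm site, 4.94 for those touching it and 4.44 for those 3′ of it, against 3.91 outside.

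The U2 genes known to be transcribed were read first. RNU2-1 belongs to a cluster of 13 copies on the minus strand of chromosome 17 (43233787 to 43300231), all annotated inside an intron of CCDC200, a protein-coding gene of the same strand. RNU2-1 and 10 other copies of this cluster were identical over 191 nt, and none of these 11 had a peak. The remaining 2 copies, those that differ from RNU2-1, both had peaks. The copy that starts 56504 nt from RNU2-1 differs by C170T (RNU2-1 base, position in RNU2-1, base of the copy). It had a single peak over positions 91 to 189, the widest U2 peak, with a log2 fold of 4.43 and a −log10 p of 400, and this peak spans the differing base.

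The copy that starts 39314 nt from RNU2-1 has 1 extra base, at its own position 6. Its peaks covered positions 46 to 77 (log2 fold 6.91) and 81 to 120 (log2 fold 6.73) of RNU2-1, ranks 6 and 10 of the SF3B4 list. Neither peak contains the extra base. The bases under them also occur unchanged in RNU2-1, and in 14 and 13 members besides the copy itself. The treatment of reads that match several copies is not given in the sources at hand, so signal on any of these near-identical copies cannot be credited to 1 of them.

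RNU2-2P (chromosome 11, 62841619 to 62841809, minus strand) is a U2 gene that is known to be transcribed although the annotation names it as a pseudogene, and it overlaps an annotated exon of WDR74, a protein-coding gene of the same strand. It matched RNU2-1 at 184 nt (96.3% identity). Its 3 peaks together ran from position 46 to 186 with short gaps, and all 3 reached a −log10 p of 400. The peak at positions 46 to 86 had a log2 fold of 5.22, the one over the Sm site (93 to 123) 4.29 and the one near the 3′ end (128 to 186) 4.30. The first of these stretches is the same in RNU2-1. The second carries 4 substitutions, G108A, C109A, A110T and G111A, a block that RNU2-36P shares, and the third carries C170T.

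Aligned to RNU2-1, peaks were sorted into 3 classes by their position relative to the Sm site. Of the 34 peaks, 18 touched the site, 10 lay 5′ of it and 6 lay 3′ of it. Each class held peaks of as many copies. The 10 peaks 5′ of the site were spread over positions 1 to 91, and 8 of them touched the branch point site. The number of copies under a peak rose from 1 at position 1 to 8 at position 33 in the branch point site. From there to position 92 it stayed between 5 and 9, with 9 at positions 46, 47, 91 and 92, so the branch point site did not stand out. It reached its maximum of 18 at positions 98 to 100 and stood at 17 over positions 101 to 118. It then fell to 2 at positions 130 to 133 and stood at 7 over positions 163 to 186. Of the 29 members with a peak, 29 could be aligned at position 33, 28 at position 99, 27 at position 163 and 22 at position 186, so fewer copies could be counted near the 3′ end. The median midpoint was position 96.8 of the copy itself, or 107 in RNU2-1 coordinates. Below about 70% identity the alignment, and so the mapped position, is less certain. This concerns the peaks of RNU2-22P, RNU2-27P, RNU2-41P and RNU2-46P.

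**Figure D2:**
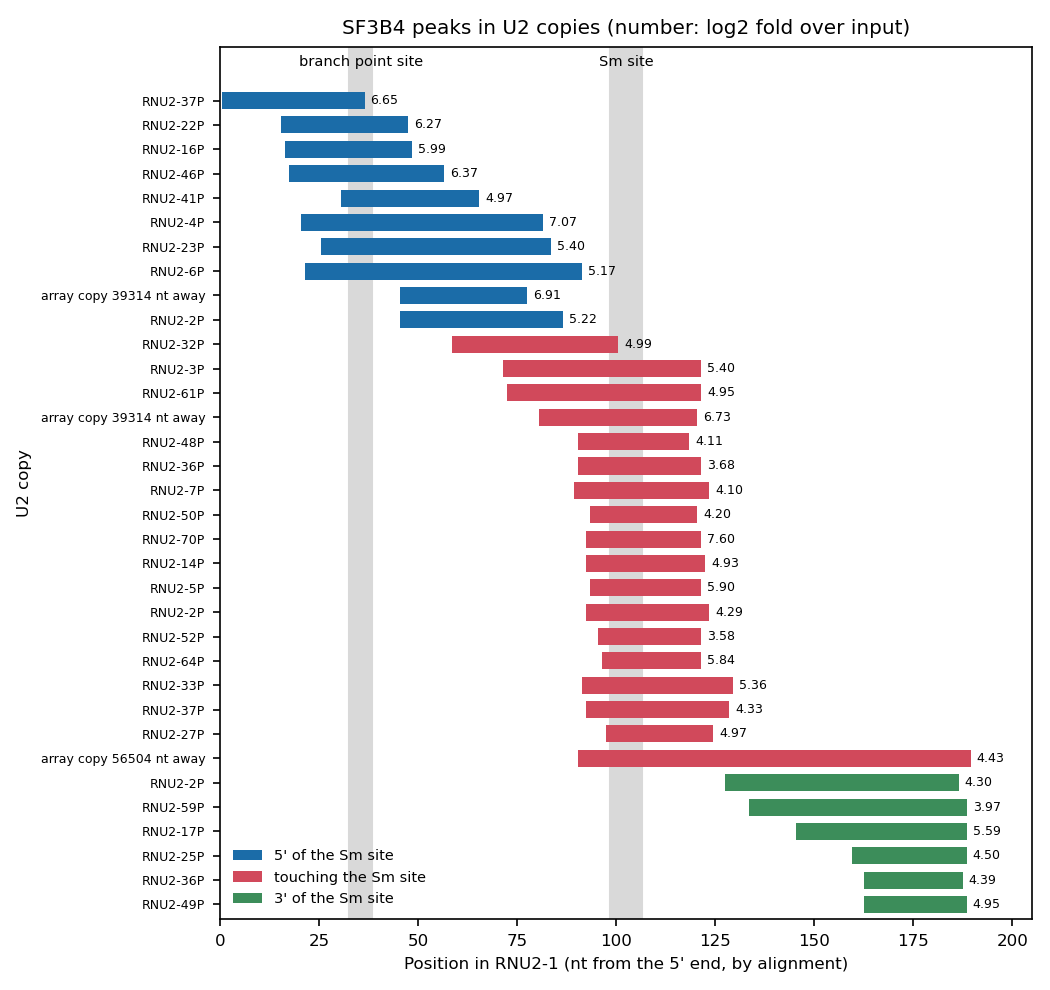
Each bar is 1 of the 34 SF3B4 peaks in U2 copies, drawn over its position in RNU2-1 (horizontal axis, nt from the 5′ end) with its copy named at the left and its log2 fold at the right; grey bands mark the branch point site and the Sm site. The red bars touch the Sm site and mostly stop between positions 118 and 124, and the green bars all stop between 186 and 188.

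The 10 peaks 5′ of the Sm site had the highest median log2 fold of the 3 classes, 6.13, with a range of 4.97 to 7.07. They made up 6 of the 8 U2 peaks among the first 50 of the list. Of these 10 peaks, 8 touched the branch point site and 7 contained all of it. RNU2-4P (positions 21 to 81) led with 7.07 and a −log10 p of 400. The cluster copy described above stood next with 6.91, and RNU2-37P with 6.65 over positions 1 to 36 was the U2 peak that reached the 5′ end. RNU2-46P (18 to 56) had 6.37, RNU2-22P (16 to 47) 6.27 and RNU2-16P (17 to 48) 5.99. The lowest folds of this class were those of RNU2-23P (5.40), RNU2-2P (5.22), RNU2-6P (5.17) and RNU2-41P (4.97).

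GTAGTA was present in the copy itself for 9 of these 10 peaks. RNU2-37P lacked it: 4 bases are missing around its branch point site. The Sm motif ATTTTTGG was present in the copies of 6 of the 10. 4 copies without it, RNU2-16P, RNU2-22P, RNU2-41P and RNU2-46P, matched RNU2-1 at 101, 138, 129 and 91 nt in all, yet kept the bases around the branch point nearly unchanged. Positions 19 to 48 of RNU2-1 are shown for them and for RNU2-23P and RNU2-37P with capitals at bases that differ from RNU2-1 or are inserted and missing bases left out.
RNU2-1: ggctaagatcaagtgtagtatctgttctta
RNU2-16P: ggctaagatcaagtgtagtatctgttctta
RNU2-46P: ggctaagatcaagtgtagtatctgttctta
RNU2-22P: ggctaagatcaagtgtagtatctgttttT
RNU2-41P: ggctaagaAcaagtgtagtatctgttctta
RNU2-23P: ggGtaagatcaagtgtagtatctgttctta
RNU2-37P: ggctaagatcaagtgtagtgttctta
This stretch was identical to RNU2-1 in 26 members, 13 of them outside the cluster. Of the 26, 4 had a peak over its centre (RNU2-4P, RNU2-6P, RNU2-16P and RNU2-46P). The bases under the peaks of RNU2-16P and RNU2-46P occurred in 25 and 17 other members, and those under RNU2-4P and RNU2-6P in no other. Since the treatment of reads that match several copies is not given, signal within this stretch cannot be credited to 1 of the 26.

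The largest class, 18 peaks at the Sm site, had a median log2 fold of 4.94 and spanned 3.58 to 7.60. The highest was RNU2-70P (7.60, positions 93 to 121), the first peak of the whole list. After the cluster copy described above came RNU2-5P (5.90), RNU2-64P (5.84), RNU2-3P (5.40) and RNU2-33P (5.36). Farther down stood, among others, RNU2-14P (4.93) and RNU2-48P (4.11). The lowest were RNU2-7P (4.10), RNU2-36P (3.68) and RNU2-52P (3.58). RNU2-32P touched the site only at its first bases, with a peak over positions 59 to 100 (4.99). The others contained the whole site.

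Edges of these peaks were counted around their own medians, position 92 for starts and 121 for ends. Of the 18, 12 started between positions 88 and 96, and 14 ended between positions 118 and 124. Starts ran from 59 to 98 and ends from 100 to 189. The class was defined by touching the site and most peaks were narrow, so part of this closeness is built in. ATTTTTGG was intact in the copies of 14 of the 18 peaks. RNU2-64P and RNU2-5P carry A99G and RNU2-27P carries T103C within the motif, and RNU2-32P lacks it too. Positions 94 to 123 are shown for copies of this class, beside RNU2-1, with capitals as above.
RNU2-1: aatggatttttggagcagggagatggaata
RNU2-61P: aatggatttttggagcagggagatggaata
RNU2-70P: CatggatttttggagTagggagatggaata
RNU2-64P: aatggGtttttggagcagggagatggaata
RNU2-5P: aatggGtttttggagcagggagatggGata
RNU2-3P: aatggatttttggagcagAgagatggaata
RNU2-33P: aatggatttttggagcagggagatAgaata
RNU2-2P: aatggatttttggaAATAggagatggaata
RNU2-52P: aatAgatttttggagcaAggagatggaata
RNU2-26P: Catggatttttggagcagggagatggaata
RNU2-26P is the last line because it had no peak, although it differs from RNU2-1 at 1 base of this stretch. Of the 69 members in which the stretch could be aligned, 16 had a peak over its centre. These 16 carried 0 to 4 differences from RNU2-1 (median 1.5), and the 53 without such a peak carried 0 to 30 (median 4). With up to 30 differences in a stretch of 30 nt, the 53 include members that hold little of it. The medians therefore do not compare intact stretches alone. Among the 16, the stretch occurred in no other member in 10, and among the 53 without such a peak in 42.

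The 6 peaks 3′ of the Sm site had a median log2 fold of 4.44 (3.97 to 5.59). They belonged to RNU2-17P (5.59), RNU2-49P (4.95), RNU2-25P (4.50), RNU2-36P (4.39), RNU2-2P (4.30) and RNU2-59P (3.97). With the wide peak of the cluster copy, 7 peaks ended between positions 186 and 189, within 5 nt of the annotated 3′ end of their copy. The 5′ edges of the 6 were spread, from position 128 in RNU2-2P and 134 in RNU2-59P to 163 in RNU2-36P and RNU2-49P. In RNU2-59P, 1 of the 2 copies of this class at the p ceiling, the peak carried C146T and C187T. For positions 159 to 188 the bases of 4 of these copies are shown beside RNU2-1, with capitals as above.
RNU2-1: tattgcagtacctccaggaacggtgcaccc
RNU2-17P: tattgcagtacctccaggaacAgtgcaccc
RNU2-49P: tattAcagtacctccaggaaTggtgcaTcc
RNU2-25P: taCtgcagtacctccaggaaTgAtgcaccc
RNU2-59P: tattgcagtacctccaggaacggtgcacTc
The whole stretch could be aligned in 50 members. The 12 of these identical to RNU2-1 had no peak over its centre, and the 6 with such a peak each carried 1 to 3 differences. RNU2-36P also has a peak over the centre but is not among the 50, since its alignment ends at position 187.

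**Figure D3:**
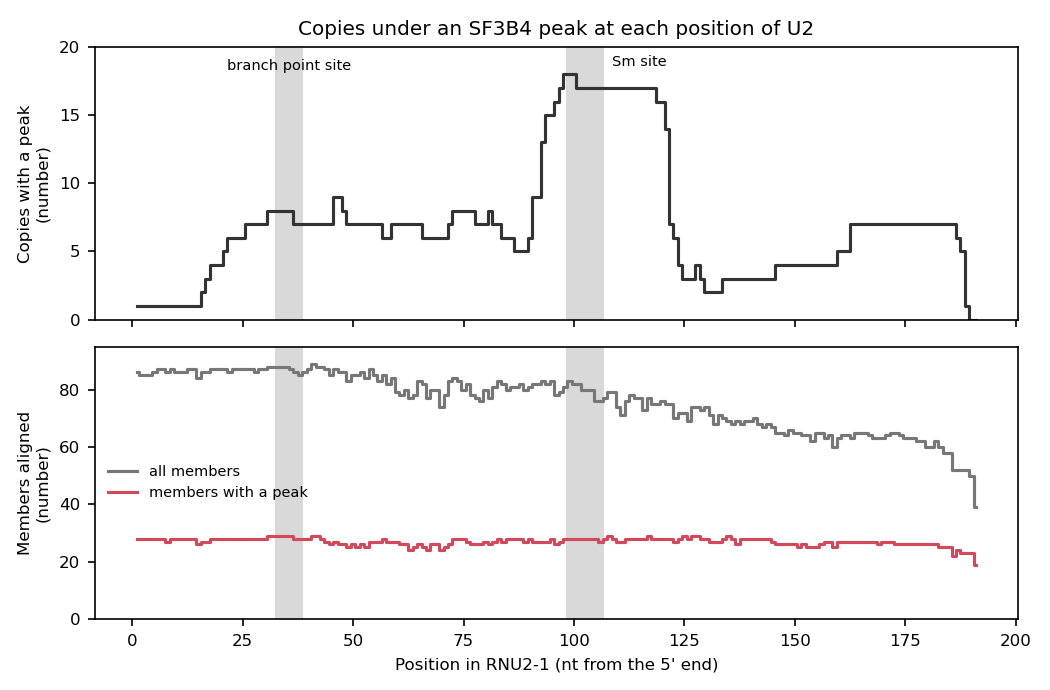
Upper panel, number of U2 copies with an SF3B4 peak at each position of RNU2-1 (horizontal axis, nt from the 5′ end); lower panel, number of members whose sequence aligns at that position, for all 89 members and for the 29 with a peak; grey bands mark the branch point site and the Sm site. The count is highest, 18 copies, at the 5′ edge of the Sm site, stays at 17 from there to position 118, and is 7 near the 3′ end.

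Over all 34 peaks, the bases under the peak occurred in no other member in 25 and in at least 1 other in 9. They occurred unchanged in RNU2-1 in 5. The number of substitutions from RNU2-1 under a peak had a median of 2 and a range of 0 to 4. The identical pair of fold and p was found in another SF3B4 peak for 14 of the 34. RNU2-3P and RNU2-23P shared one such pair (log2 fold 5.40, −log10 p 11.5), and RNU2-27P and RNU2-41P another (4.97 and 8.37).

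At the median, copies with a peak resembled RNU2-1 more closely than those without, although the 11 identical cluster copies were among the latter. Identity over the aligned stretch had a median of 89.0% (quartiles 85.3 and 91.6%) in the 29 copies with a peak and of 75.3% (67.9 and 86.4%) in the 60 without. The number of matching bases was 169 against 137 at the median. Outside the cluster and at 150 nt or more, 2 of 13 copies below 70% identity had a peak, 1 of 9 at 70 to 80%, 13 of 23 at 80 to 90% and 7 of 8 at 90% or above. The copy without a peak in the last group was RNU2-26P (91.1%). The next closest copies without a peak outside the cluster were RNU2-56P (89.5%), RNU2-68P (89.1%), RNU2-43P (86.5%) and RNU2-8P (86.4%). RNU2-26P and RNU2-68P hold both motifs. A peak was found on 25 of 66 copies of at least 150 nt (37.9%) and on 4 of 23 shorter ones (17.4%).

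The Sm motif ATTTTTGG, searched on the sense strand of the copy, stood in 19 of 29 copies with a peak (65.5%) and in 18 of 60 without (30.0%), 11 of the latter being the identical copies of the cluster. GTAGTA stood in 19 of 29 (65.5%) and in 33 of 60 (55.0%). Both motifs together were present in 12 of the 29 copies with a peak and in 13 of the 60 without. The 11 identical copies of the cluster are among the 33 and among the 13. Copies share their descent from the same genes, so these counts are not independent observations.

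**Figure D4:**
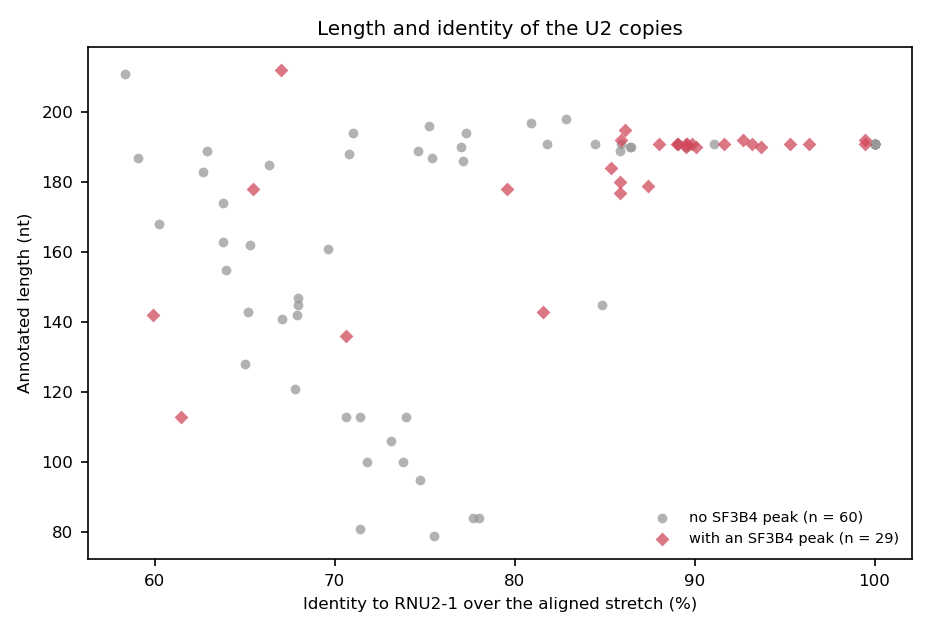
Annotated length in nt (vertical axis) against identity to RNU2-1 in percent over the aligned stretch (horizontal axis) for the 89 U2 copies, with a red diamond for the 29 with an SF3B4 peak and a grey circle for the 60 without. Most diamonds sit above 85% identity near 191 nt, and the 11 identical cluster copies, drawn over each other at 100%, are grey.

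Many copies lay inside other genes. Of the copies with a peak, 11 lay inside a gene of the same strand, 6 only in a gene of the opposite strand and 12 in no other gene. For copies without a peak the numbers were 26, 14 and 20. Same-strand intronic hosts with a peak in the U2 copy were RUVBL1, which encodes a DNA helicase-like ATPase (RNU2-37P), KIF24, a kinesin gene (RNU2-50P), IFT88, which encodes a protein of intraflagellar transport (RNU2-7P), RUBCNL (RNU2-6P), GSKIP (RNU2-33P), the pseudogene AC017104.5 (RNU2-22P), the long noncoding RNA gene AC015574.1 (RNU2-3P) and CCDC200, whose intron holds both cluster copies with a peak. RNU2-4P lay in an exon of LINC00910 and RNU2-2P in one of WDR74. None of these hosts, nor any same-strand host of a copy without a peak, had an SF3B4 peak outside U2 copies. SF3B4 peaks lay on 3.55% of all annotated genes and 9.4% of protein-coding genes. With so few hosts, the lack of such peaks does not set the hosts apart from other genes. Copies antisense to their host included RNU2-70P (ERO1B), RNU2-25P (SMARCA2), RNU2-5P (MAMDC2), RNU2-46P (LINC00476) and RNU2-59P (BTRC). Their peaks were on the strand of the U2 copy.

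G4PID had no peak on any U2 copy. Of all 58121 genes, 0.237% had a G4PID peak, and 0 of the 89 copies did, on either strand. With so low a share over all genes, 0 of 89 does not set the U2 copies apart from other genes. The list holds only peaks that passed the authors' thresholds, so a copy without a peak is not shown to be unbound. The G4PID peak nearest to a copy lay 38684 nt from RNU2-3P.

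SF3B4 peaks were rare on other small nuclear RNAs, as on other short genes. In 10 families fixed by name, 5 of 2093 genes had one (0.239%), against 0.154% of genes of 100 to 250 nt other than U2 copies. All 5 were among the 1301 U6 genes, the catalytic small nuclear RNA that pairs with U2 in the active spliceosome. None was found among 137 U1, 97 U4, 31 U5, 156 U7, 6 U11, 2 U12, 19 U4atac, 44 U6atac or 300 7SK genes. At so low a share, the lack of peaks does not set any of these families apart. RNU6-4P had a peak over its whole length (log2 fold 4.38, −log10 p 400). The peaks of RNU6-48P (6.33), RNU6-463P (6.18), RNU6-378P (5.84) and RNU6-517P (4.65) lay at the 3′ end of the copy. All 5 U6 folds exceeded the median of the whole SF3B4 list, 3.93, as did those of 32 of the 34 U2 peaks, so a high fold was not particular to U2. G4PID had peaks on 4 of 137 U1 copies (2.92%) and 1 of 1301 U6 copies (0.077%), against 0.237% of all genes. RNU1-88P (5.49), RNU6-40P (5.02) and an RF00003 copy on chromosome 1 (4.81) were highest by log2 fold among these 5.

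The genes of U2 proteins were read from a fixed list. Of 24 genes for SF3b, SF3a, Sm, U2-specific A′ and B″ proteins and their partners, 8 had an SF3B4 peak (33.3%, against 9.4% of protein-coding genes) and 0 a G4PID peak (against 0.508%). The G4PID share is too low for 0 of 24 to set these genes apart. The highest log2 folds were those of DDX46, which encodes a helicase of early spliceosome assembly (5.66), SF1, the branch point-binding protein that U2 replaces (5.03), SF3B3 (4.93) and SF3B1, the scaffold of SF3b (4.74). No peak of these genes lay on a U2 copy.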

How the data were processed

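Peaks of the SF3B4 and G4PID eCLIP libraries were analysed as deposited, 1 list per antibody, without per-library values. The submitters' processing notes name cutadapt 3.4, STAR 2.7.0d and the builds hg19 and hg38. How peaks were called and filtered, how replicates were joined and how multiply mapping reads were treated are not given in the sources at hand. The files have no header. Column 4 was taken as the −log10 p-value and column 5 as the log2 fold over input, both deposited by the authors, from the usual eCLIP order and from their values, all above 5 and 3.

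Members were matched by name in GENCODE release 29 (hg38). 3 further U2 genes on chromosome Y and unplaced sequences were left out. All 89 members had a transcript sequence. Each was aligned to RNU2-1 from end to end with free end gaps (match 1, mismatch -1, gap opening -2, extension -0.5), and identity counts matches over aligned columns, internal gaps included. The cluster is the copies within 100 kb of RNU2-1. Other families were matched by name. Intervals are 95% Wilson intervals. The overlap and alignment steps were tested on simulated data. Python 3.11.15, Biopython 1.88, numpy 2.4.6, scipy 1.17.1 and matplotlib 3.10.9 were used. Depth is unknown.

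The members and lists were chosen with earlier results of these data known. Named were all copies with a peak, RNU2-1, RNU2-2P and up to 5 of the closest copies without a peak; since 11 of the latter tied at full identity, the copies next in line outside the cluster were named after their values were seen. The windows printed and the edge counts were also chosen after the data were examined. Alternatives in overlap, strand, threshold, naming, length and position are given in the closing section.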

Additional observations from a re-analysis of the deposited data

How the results depend on the processing

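The 34 SF3B4 peaks on 29 U2 copies were unchanged when 50% of the peak or its midpoint had to lie in the copy and when strand was ignored. All 34 lay wholly inside their copy and no SF3B4 peak was antisense to a copy, so these settings could not change the count. With a log2 fold of at least 4 and a −log10 p of at least 10 the peaks were 27 on 23 copies. With RNU2 names alone they were 31 on 27, and with copies of at least 150 nt 30 on 25. Of the alternatives added after the data were examined, leaving out the chromosome 17 cluster and RNU2-2P gave 28 peaks on 26 copies, and keeping only peaks whose bases occur in no other member gave 25 on 24. G4PID peaks on U2 copies were 0 under the 6 planned settings, of which only ignoring strand could have added a peak. The median midpoint was 96.8 in the copy and 107 by alignment, and the median log2 fold was 4.98, or 5.17 with 1 peak per copy. No paired analysis was possible because the lists carry no value per library, and for the same reason no replicate could be left out.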

Other observations

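Sequence like U2 was looked for under the other peaks. Of 3626 SF3B4 peaks outside U2 copies, 1708 were covered in full by annotated transcripts. None of these had a stretch of 14 nt in common with RNU2-1 or RNU2-2P within 100 nt on its strand, where that flank was known. The same held for 188 of the 269 G4PID peaks on chromosomes 1 to 22 and X. The other peaks on these chromosomes were not searched because no genome sequence was used here, and 1 G4PID peak on the mitochondrial chromosome was left out.

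The U2 copies were also searched for the runs of G of quadruplex motifs. Among the 89 members, 4 runs of 3 or more G separated by 1 to 7 nt were found in 0, on either strand. With runs of 2 or more G, 40 held such a stretch in sense and 8 in antisense. None of these copies had a G4PID peak, and neither did any of the other members.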
